A study of Mus musculus with 6 samples.

Results

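KS100, an inhibitor of aldehyde dehydrogenases, was set against control in pooled B16F10 melanoma tumours, over the 7951 genes with at least 20 counts in either of 2 libraries. These genes were taken from 43629 in the count table, of which 19725 had a count in any of the study's 6 libraries. Both libraries came from tumours that grew after B16F10 cells, a pigmented mouse melanoma line, were placed under the skin of female C57BL/6J mice of 8 weeks. One group received KS100 with control IgG and the other DMSO with control IgG. Control IgG was thus shared, and the label of the KS100 group does not name DMSO. Treatment was daily until the control tumours had reached 2000 mm3. Tumours of a group were pooled before RNA was extracted, so each group is 1 library and the pair has no replicate check. The number of mice per pool and the dose were not used here. In bulk tumour RNA, fewer cells of a type and less RNA per cell cannot be told apart.

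Aldehyde dehydrogenases oxidise reactive aldehydes, including products of lipid peroxidation, to carboxylic acids, and some family members make retinoic acid from retinal. B16F10 tumours are built mostly from cells of the melanocyte lineage, whose specialised organelle, the melanosome, holds the enzymes and transporters of melanin synthesis. Libraries were made from the 3′ ends of polyadenylated transcripts with an oligo-dT primer, so a count is a read near a transcript's end and does not grow with transcript length.

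The KS100 library was shallow, and this sets which differences could be seen. It held 44748 counts against 1591673 in control, and 1 count in it equalled 22.3 CPM (counts scaled to a library total of 1000000). The limit that a count of 0 allows, taken as 3 counts, was 67.0 CPM there against 1.88 CPM in control. After scaling by trimmed means (TMM), equal expression meant 46.1 counts in control for each count in the KS100 pool. The median gene of the 7951 had 79 counts in control and 2 in the KS100 pool. A total of 2199 genes (27.7%) had none in the KS100 pool and 3582 had 1 to 3. Only 203 genes reached 20 counts in the KS100 pool, against 7943 in control. At the minimum itself, 107 genes had exactly 20 counts in the higher pool, and the KS100 pool was at 0 for 45.8% of them. For the 118 genes just outside, with 19 counts, that share was 60.2%.

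A gene was called higher or lower where its scaled ratio was 2-fold or more, up or down, and no part of the ratio's 95% exact conditional interval came within 1.5-fold of equality. This is a rule of size, not a test of the treatment, and the interval covers counting error only. A gene with 20 counts in control needed 4 counts in the KS100 pool, a 9.23-fold ratio, to be called higher. With 100 control counts it needed 8, a 3.69-fold ratio. A gene had to have 258 counts in control before 0 counts in the KS100 pool could be called lower, so genes below that depth could only be called higher or not at all. The 1321 genes at or above it held all 148 lower calls, 11.2% of their number, and 39 higher calls (2.95%).

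The rule called 506 of 7951 genes (6.36%), 358 higher (4.5%) and 148 lower (1.86%). Scaling by library totals instead called 258 higher and 321 lower, which turned a 70.8% share of higher calls into 44.6%. The median log2 ratio of the 7951 genes was -0.49, and -0.85 with library totals. Gene groups are therefore read below against the other genes of the same pools. The other KS100 library, KS100 with anti-PD-1, was set against the DMSO with anti-PD-1 library in the same way, and this second pair shares no library with the first. Anti-PD-1 is an antibody against an inhibitory receptor on T cells. This pair called 445 of 6959 genes (6.39%), 232 higher (3.33%) and 213 lower (3.06%), on 25521 counts in its KS100 library.

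**Figure D1:**
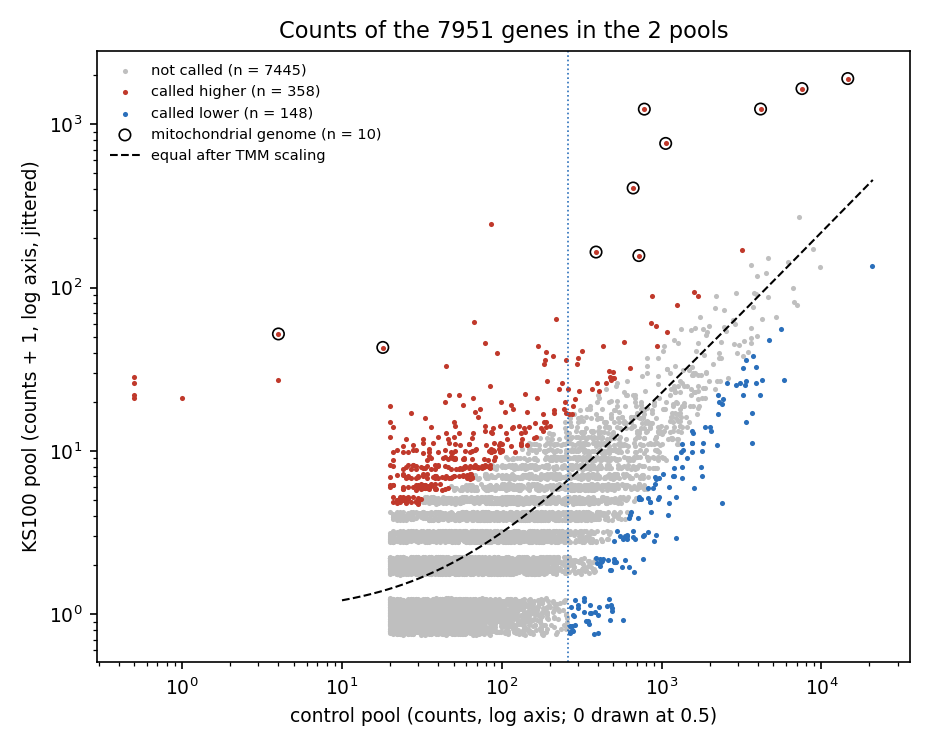
Counts of each of the 7951 genes in the control pool (x axis, log scale, 0 drawn at 0.5) and in the KS100 pool (y axis, counts plus 1, log scale, points spread slightly so that ties can be seen). The dashed line marks equal expression after TMM scaling and the dotted vertical line marks 258 control counts. Genes of the mitochondrial genome (circled) lie far above the line, and lower calls (blue) begin only right of the dotted line.

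Pigment genes were low in both KS100 pools, and none of them was called higher by the size rule in either pair. Among the gene lists with 10 or more members, theirs had the largest share of lower calls. Of 20 melanocyte and pigment genes, 10 were called lower, against 11.2% of all genes deep enough for such a call, and 16 of the 20 were that deep. Lower calls were more frequent in deeper classes, and the pigment genes were not matched for depth. Among nuclear genes 28 of 144 were lower at 1000 to 1999 control counts, 26 of 63 at 2000 to 4999 and 3 of 11 from 5000 up. The 1313 nuclear genes with 258 or more control counts summed to a ratio of 0.716 (0.705 to 0.728) without the antibody. In the second pair they summed to 0.371 (0.359 to 0.383), and the sums of abundant gene groups are read against these values. The summed counts of the pigment genes were 49044 in control and 351 in the KS100 pool, a ratio of 0.330 (0.296 to 0.367). Their median log2 ratio was -1.62. An even background, estimated below, would account for 8.22 of the 351 counts. The second pair gave a summed ratio of 0.215 (0.174 to 0.262), with 9 lower calls among 22 genes and none higher. The median log2 ratio of that pair's 6959 genes was -2.09, and other lists of abundant genes were at like values there, among them the lysosome at 0.18 and ubiquitin genes at 0.179, so the pigment genes did not stand apart in it.

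Among the enzymes and structural proteins of the melanosome, Dct (chr14:118012790-118052244, GRCm38), which converts dopachrome, had 20773 counts in control and 134 in the KS100 pool. Its ratio was 0.298 (0.249 to 0.353), and with the antibody it was 0.234 (0.172 to 0.311). Tyrp1, a second enzyme of the pathway, had 3393 and 26 counts, a ratio of 0.354 (0.231 to 0.519). Pmel (chr10:128704195-128720238), which forms the fibrils on which melanin is laid down, had 3663 and 10 counts, a ratio of 0.126 (0.0604 to 0.232). Defining markers of melanocytes were thus detected in both pools. Mlana, a melanosome membrane protein, had 2212 and 10 counts, a ratio of 0.209 (0.0999 to 0.384). Tyr, the first enzyme of the pathway, had only 53 counts in control and 0 in the KS100 pool, too few to be read.

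The ion transporters of the melanosome were low as well. Slc24a5, a cation exchanger that sets pigment level, had 2373 counts in control and 4 in the KS100 pool, a ratio of 0.0778 (0.0212 to 0.199). Slc45a2 had 1789 and 6 counts, a ratio of 0.155 (0.0567 to 0.337). Tspan10, a tetraspanin, had 574 and 0 counts, with an upper bound of 0.297 for its ratio, and 332 and 0 in the second pair. Trpm1, a cation channel of melanocytes, had 1824 and 10 counts, a ratio of 0.253 (0.121 to 0.466). Low shares of Dct, Pmel and Slc24a5 were not particular to KS100. The AZD5363+MK1775 pool, of 26639 counts, had 174, 17 and 17 for them, and control, of 1591673, had 20773, 3663 and 2373. With AZD5363, MK1775 and anti-PD-1, of 338474 counts, they had 2432, 315 and 161, while Tspan10 was not low there at 220.

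The transcription factors of the lineage did not pass the rule in the pair without antibody. Mitf, the lineage's master regulator, had 1873 counts in control and 20 in the KS100 pool, a ratio of 0.493 (0.3 to 0.763). Sox10 had 374 and 5 counts, a ratio of 0.617 (0.199 to 1.45), and Pax3 had 695 and 18, with an interval from 0.704 to 1.9. The intervals of Sox10 and Pax3 include 1. In the second pair Mitf was called lower, with 1272 counts against 1. The 8 dedifferentiation and invasion genes with enough counts had none called. All 19 genes of that list summed to 1.30 (1.00 to 1.65), and to 0.999 with library totals. An even background would give 8.97 of their 68 counts in the KS100 pool.

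**Figure D2:**
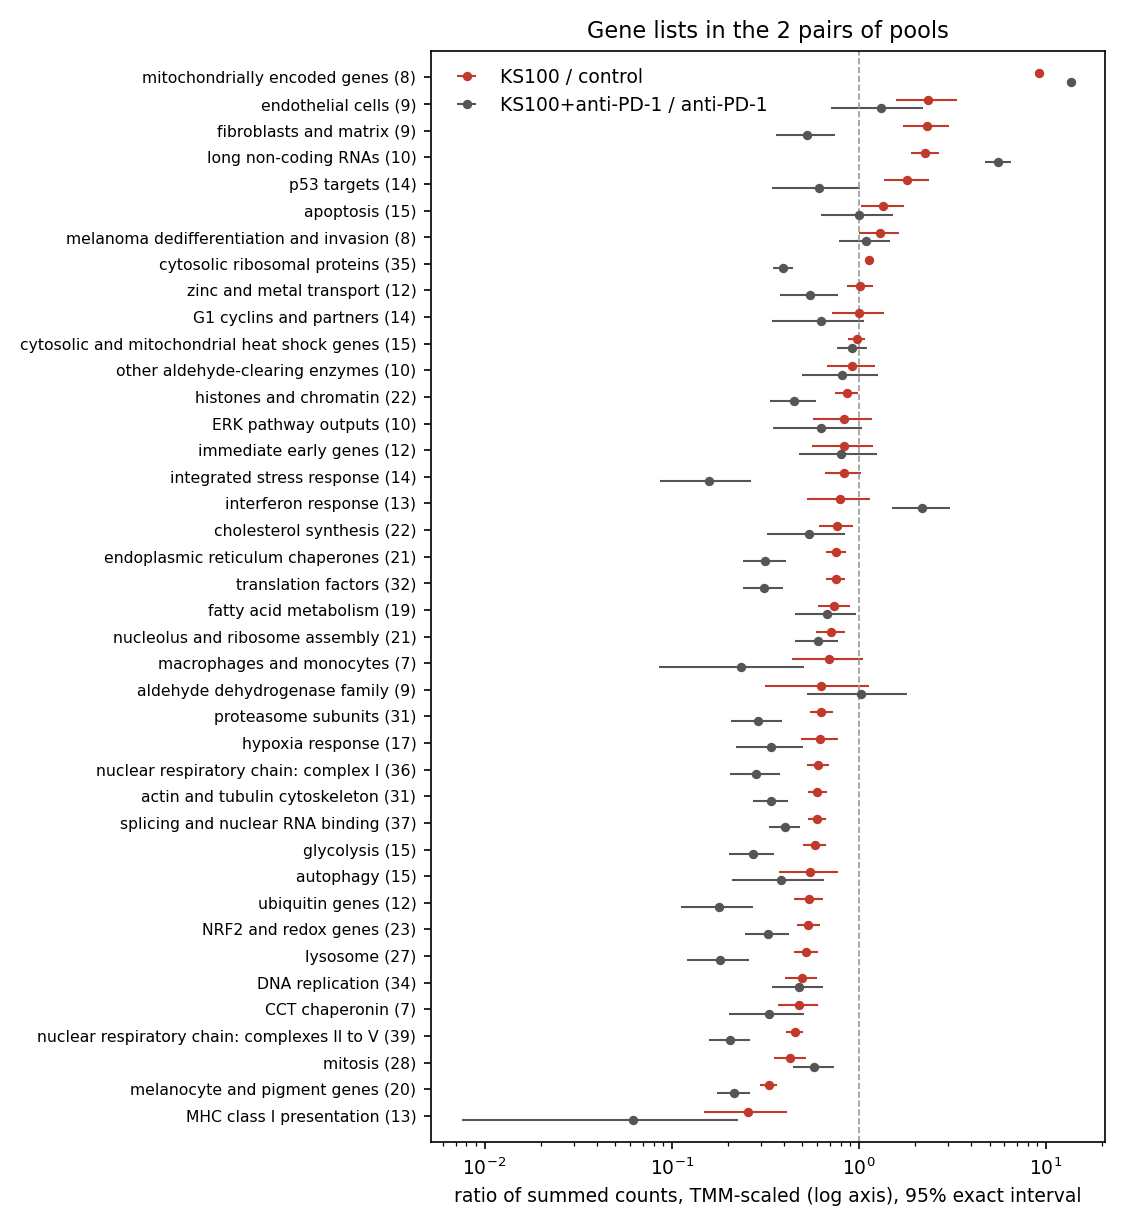
Ratio of summed counts (x axis, log scale, TMM-scaled) for each gene list with 7 or more of its genes among the 7951 (number in brackets), for KS100 against control (red) and for KS100+anti-PD-1 against anti-PD-1 (grey). Bars are 95% exact intervals and cover counting error only. Pigment genes and MHC class I genes lie lowest without the antibody, and mitochondrially encoded genes lie highest in both pairs.

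The respiratory chain split by genome. Its subunits made from nuclear genes were low in the KS100 pool, and those made from the mitochondrial genome were high. Among 39 nuclear subunits of complexes II to V, 33 of them deep enough for a lower call, there were 11 lower calls and no higher call. Of all 1321 genes that deep, 11.2% were called lower. The subunits of complexes II to V had a summed ratio of 0.455 (0.409 to 0.506), against 0.716 for the abundant genes, and a median log2 ratio of -1.07. Of 36 nuclear subunits of complex I, 25 of them that deep, 5 were called lower and 1 higher, with a summed ratio of 0.608 (0.531 to 0.693). In the second pair the summed ratios were 0.205 (0.158 to 0.262) for complexes II to V and 0.282 (0.204 to 0.381) for complex I. The interval of complex I includes the 0.371 of the abundant genes in that pair.

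Lower calls fell in complexes I, II, IV and V. Cox6c, of cytochrome oxidase, had 3917 counts in control and 25 in the KS100 pool, a ratio of 0.294 (0.19 to 0.435). Cox7a2, of the same complex, had 2013 and 13 counts, a ratio of 0.298 (0.158 to 0.511). Atp5g3, which forms part of the rotor ring of ATP synthase, had 3733 and 37 counts, a ratio of 0.457 (0.321 to 0.632). Sdhb, of complex II, had 740 and 4 counts, a ratio of 0.249 (0.0678 to 0.641). None of the complex III subunits in the list was called. Chchd10, a small protein of the space between the mitochondrial membranes, had 1237 and 4 counts, a ratio of 0.149 (0.0406 to 0.383), and 0.15 (0.031 to 0.441) with the antibody.

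All 8 mitochondrially encoded messenger RNA genes among the 7951 were called higher. Their list took 1.77% of control counts and 12.6% of the KS100 counts. It also took 10.9% in the pool with AZD5363 and MK1775 and 5.19% in the pool with these and anti-PD-1, so a high share was not particular to KS100. mt-Cytb, the core of complex III, had 14636 counts in control and 1903 in the KS100 pool, a ratio of 6.00 (5.72 to 6.29). mt-Nd1, of complex I, had 7566 and 1652 counts, a ratio of 10.1 (9.55 to 10.6). mt-Nd2, also of complex I, had 664 and 406 counts, a ratio of 28.2 (24.9 to 32.0), and 163 (142 to 188) with the antibody. The mitochondrial genes did not move by a common factor, since these intervals do not overlap. Counts of mt-Co2 and mt-Atp6 may be split with a nuclear copy of mitochondrial sequence. mt-Atp6 had 4 and 51 counts, and both genes entered only through the KS100 pool, so they had to come out higher.

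Ribosomal RNA was high too. The nuclear-encoded kind carries no regular poly(A) tail. The mitochondrial 16S gene mt-Rnr2 had 780 counts in control and 1236 in the KS100 pool, a ratio of 73.1 (66.8 to 80.1). Gm42418, a gene that overlaps nuclear ribosomal RNA sequence, had 85 and 245 counts, a ratio of 133 (104 to 172). The mitochondrial genes mt-Rnr1 and mt-Rnr2 and the gene Gm42418 together took 0.121% of control counts and 5.01% of KS100 counts. In the pool with AZD5363, MK1775 and anti-PD-1 their share was 27.4%, so this too was not particular to KS100. Shares of mitochondrial and ribosomal RNA moved with every group difference described here, and their part in those differences was not tested.

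Most genes that handle used or misfolded protein were not called, and their sums lay at or somewhat below the 0.716 of the abundant genes. Ubiquitin genes had 3 lower calls and 1 higher among 12, with a summed ratio of 0.541 (0.45 to 0.644). Ubb (chr11:62551171-62553213), a polyubiquitin gene, had 3659 counts in control and 16 in the KS100 pool, a ratio of 0.202 (0.115 to 0.328). With the antibody Ubb had 2433 counts against 1. Polyubiquitin genes have near-identical repeats and copies, so the values of Ubb are uncertain. Nedd8, a ubiquitin-like modifier, had 1553 and 10 counts, a ratio of 0.297 (0.142 to 0.548).

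Proteasome subunits summed to 0.632 (0.546 to 0.728), and only Psmd8 was called among 31, 21 of them deep. Psmd8 was not called with DESeq2's size factors (0.317) or with totals over nuclear coding genes (0.311). Lysosomal genes summed to 0.524 (0.451 to 0.606), with 4 lower calls among 27, 19 of them deep, and no higher call. Psap (chr10:60277627-60302597), the precursor of the saposins that help degrade sphingolipids, had 1607 and 5 counts, a ratio of 0.144 (0.0466 to 0.336), and 458 and 0 in the second pair. Cd63, a tetraspanin of lysosomes and melanosomes, had 3251 and 31 counts, a ratio of 0.44 (0.298 to 0.626). Atp6v1g1 and Atp6ap1, parts of the proton pump that acidifies the lysosome, were the other 2 lower calls. Atp6ap1 had 277 and 0 counts, and the upper bound of its ratio was 0.619. Autophagy genes had no call among 15, with a summed ratio of 0.549 (0.375 to 0.777).

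Chaperones differed by gene. The chaperonin CCT, which folds actin and tubulin, summed to 0.477 (0.368 to 0.607) over its genes, with Cct7 and Cct8 lower among 7. In the mitochondrial matrix, Hspd1 had 823 counts in control and 2 in the KS100 pool, a ratio of 0.112 (0.0136 to 0.406). Its partner Hspe1 had 2045 and 12 counts, a ratio of 0.271 (0.14 to 0.474). With the antibody Hspe1 stood at 2.16 (1.29 to 3.4), not past the rule and in the other direction. Of the cytosolic chaperones, Hspa8 was called lower with 1110 and 4 counts, a ratio of 0.166 (0.0452 to 0.427). Hsp90ab1 was not called at 1.72 (1.52 to 1.95), with 7252 and 271 counts. Hsp90ab1 held 271 of the 348 counts of the heat shock list in the KS100 pool. The list summed to 0.975 (0.874 to 1.08), while its median log2 ratio was -1.88.

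In the endoplasmic reticulum 5 genes were called lower and 2 higher among 21. Pdia6, a disulphide isomerase, had 3888 and 32 counts, a ratio of 0.380 (0.259 to 0.537). Calr, a lectin chaperone that also serves MHC class I assembly, had 628 and 1 counts, a ratio of 0.0735 (0.00186 to 0.411). Ssr3, a subunit of the translocon-associated complex, was higher with 1699 and 88 counts, a ratio of 2.39 (1.91 to 2.96). It was 0.387 (0.177 to 0.737) with the antibody, and with library totals the ratio without antibody was 1.84 and not called.

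The listed ribosomal protein genes and translation factors had no lower call. Among 35 listed ribosomal protein genes 2 were called higher, Rps19 and Rps6, against 4.5% of all 7951 genes. Of the 35, 32 were deep enough to be called lower. Their median log2 ratio was -0.04 and their summed ratio 1.14, and 0.877 with library totals. In the second pair that list summed to 0.394 (0.348 to 0.445), with 12 of 34 lower. Rps19, of the small subunit, had 918 counts in control and 57 in the KS100 pool, a ratio of 2.87 (2.15 to 3.75). Outside the list, Rps27a (2.13), counted with the ubiquitin genes, and Rps15a (2.71) and Rpl37 (2.43) were also called higher without the antibody. Many ribosomal protein genes have processed pseudogenes, so single values are uncertain. Translation factors had no call among 32 and summed to 0.753 (0.672 to 0.841).

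Cell division genes were low in sum without the antibody. Mitosis genes had 5 lower calls and none higher among 28. They summed to 0.431 (0.353 to 0.521), and their median log2 ratio was -1.27. Only 9 of the 28 were deep enough for a lower call. Plk1, a mitotic kinase, had 1879 counts in control and 13 in the KS100 pool, a ratio of 0.319 (0.17 to 0.547). Bub3, of the spindle checkpoint, had 609 and 2 counts, a ratio of 0.152 (0.0183 to 0.55). With the antibody the mitosis genes summed to 0.575 (0.443 to 0.734), with 2 genes higher and none lower. That sum lies above the 0.371 of the abundant genes in that pair.

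DNA replication genes had 3 lower calls and 1 higher among 34 and summed to 0.495 (0.404 to 0.6). In the second pair they summed to 0.476 (0.346 to 0.641), not below the 0.371 of the abundant genes there. Mcm5, part of the replicative helicase, had 480 counts in control and 0 in the KS100 pool, and the upper bound of its ratio was 0.356. It had 285 and 0 in the second pair. Cdt1, which loads that helicase, had 514 and 1 counts, a ratio of 0.0898 (0.00227 to 0.502). Rfc1, the large subunit of the clamp loader, was higher with 181 and 12 counts, a ratio of 3.06 (1.55 to 5.48), but was not called with library totals. G1 cyclins and their partners had no call among 14 and summed to 1.01 (0.723 to 1.37).

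Cytoskeleton, splicing and chromatin genes had few calls. Actin and tubulin genes had 3 lower calls and none higher among 31, 21 of them deep, and summed to 0.601 (0.534 to 0.674). Tuba1a, an alpha-tubulin, had 894 counts in control and 2 in the KS100 pool, a ratio of 0.103 (0.0125 to 0.374). Splicing and RNA-binding genes had 4 lower calls and 1 higher among 37, 29 of them deep, and summed to 0.598 (0.534 to 0.666). Both sums lie somewhat below the 0.716 of the abundant genes, with intervals that cover counting error only. Sf3b1, which helps to recognise the branch point, had 1565 and 12 counts, a ratio of 0.354 (0.182 to 0.62), and 0.118 (0.0142 to 0.426) with the antibody. Histone and chromatin genes had 1 lower and 2 higher calls among 22, 9 of them deep. They summed to 0.862 (0.749 to 0.988), above the abundant genes, and to 1.03 with the even background subtracted. H2afz, a histone variant, had 1800 and 9 counts, a ratio of 0.231 (0.105 to 0.439), and Cbx5, a heterochromatin protein, had 23 counts in the KS100 pool and a ratio of 2.90 (1.81 to 4.42) that was not called with library totals. Genes of the nucleolus and of ribosome assembly summed to 0.708 (0.593 to 0.84), with 1 of 21 lower.

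Signalling, stress and metabolic programmes showed few calls. Integrated stress response genes had 1 lower call among 14. It was Slc3a2, the heavy chain of amino acid transporters, with 466 and 0 counts and an upper bound of 0.367. That list summed to 0.829 (0.657 to 1.03) without the antibody and 0.159 (0.0868 to 0.267) with it. Interferon response genes had 1 lower call among 13 and summed to 0.795 (0.527 to 1.15), against 2.19 (1.51 to 3.08) with the antibody, a difference that was not tested. Among p53 targets Ccng1 and Zmat3 were called higher of 14, Ccng1 not with library totals, at 2.25. Zmat3, an RNA-binding protein, had 211 and 17 counts, a ratio of 3.72 (2.13 to 6.1), and 0.661 (0.136 to 1.95) with the antibody. The apoptosis inhibitor Bcl2 had 213 and 16 counts, a ratio of 3.47 (1.95 to 5.76), and was not called with library totals. Immediate early genes and outputs of the ERK pathway had no call among 12 and 10. Glycolysis had no call among 15 genes, 10 of them deep, and summed to 0.583 (0.505 to 0.67), with 4 lower calls and 1 higher in the second pair. Fatty acid metabolism had none among 19, and the hypoxia response had 1 lower among 17, 9 of them deep, and summed to 0.619 (0.489 to 0.773). In cholesterol synthesis only Fdps, which makes farnesyl pyrophosphate, was lower among 22, with 819 and 5 counts, a ratio of 0.282 (0.0912 to 0.66), and it was not called with DESeq2's size factors (0.294) or with totals over nuclear coding genes (0.288).

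The genes of the enzymes that KS100 inhibits could not be read at this depth. Of 20 aldehyde dehydrogenase genes 9 had at least 20 counts in a pool, and none was called by the size rule. The whole family had 803 counts in control and 11 in the KS100 pool, a ratio of 0.632 (0.314 to 1.14), and an even background would give 6.23 of the 11. Aldh2 (chr5:121566027-121593824), the mitochondrial enzyme that clears acetaldehyde, was the only one above 258 counts. It had 309 and 2 counts, a ratio of 0.299 (0.036 to 1.09). Aldh6a1 had 119 and 0 counts, Aldh9a1 had 69 and 1, and Aldh1l2 had 58 and 0. Aldh1a3, a maker of retinoic acid, was below the minimum with 2 and 3 counts, a ratio of 69.2 (7.93 to 829), and had 4 and 7 in the second pair. In the fit to all 6 pools, described at the end, Aldh1a3 was higher by 6.28 on the log2 scale (adjusted p = 1.08e-05, edgeR's quasi-likelihood test). It was the only call among the 3 family members fitted. However, it belongs to the 287 fitted genes below 20 counts in both pools of the pair. Of these, 230 were called higher and 0 lower, so the call is not read as a result about Aldh1a3. Transcript counts do not measure the enzymes' activity.

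Other enzymes that clear aldehydes had 1 higher and 1 lower call among 10. Akr1b10, an aldo-keto reductase, had 43 counts in control and 8 in the KS100 pool, a ratio of 8.58 (3.49 to 18.5), and 17.4 (6.32 to 42.0) with the antibody. Its exons hold a run of 17 A, a feature taken up below. Gsta4, a glutathione transferase for the lipid aldehyde hydroxynonenal, had 271 and 0 counts, and the upper bound of its ratio was 0.632. NRF2 and redox genes had 2 lower calls among 23, Prdx1 and Taldo1. Taldo1, of the pentose phosphate pathway, had 351 and 0 counts, with an upper bound of 0.487.

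In the retinoic acid pathway 2 of 6 genes were called higher, and the list of 17 genes summed to 6.17 (4.43 to 8.41). None of the 6 had enough control counts for a lower call. Greb1, a nuclear receptor cofactor, supplied 26 of the list's 46 counts and had 4 in control. It entered only through the KS100 pool, so it had to come out higher. Nrip1, another cofactor, had 32 and 10 counts, a ratio of 14.4 (6.32 to 30.1), and 10.4 (3.57 to 25.2) with the antibody. The receptor gene Rara and the retinoic acid hydroxylase gene Cyp26b1 each had 2 counts in the KS100 pool, with 47 in control, and were not called at 1.96 (0.231 to 7.5).

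Transcripts of host cells were scarce in both pools. No T cell, B cell, neutrophil or keratinocyte marker of the lists reached 20 counts in either pool. The 18 T cell markers held 12 counts in control and 2 in the KS100 pool, and an even background would give 3.79. Macrophage genes summed to 0.695 (0.44 to 1.05), with 1 of 7 called. That gene, Apoe, a lipid carrier also made by other cells, had 604 counts in control and 2 in the KS100 pool, a ratio of 0.153 (0.0185 to 0.554), and 588 and 0 in the second pair. The lists of MHC genes are not lists of host cell markers. MHC class I presentation genes had 2 lower calls among 13, B2m and Calr, and 8 of the 13 were at 0 in the KS100 pool. That list summed to 0.257 (0.15 to 0.413) on 3047 and 17 counts, and an even background would give 4.86 of the 17. In the second pair it summed to 0.0623 (0.00754 to 0.225) on 1839 and 2 counts. MHC class II genes had 258 counts against 1, a ratio of 0.179 (0.00451 to 1.01), with none of 5 called. The adult globin gene Hbb-bs, a mark of red blood cells and 1 lower call among 4 erythroid genes, had 724 and 4 counts, a ratio of 0.255 (0.0693 to 0.656), and was not called with DESeq2's size factors (0.266) or with totals over nuclear coding genes (0.261).

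Vessel and stromal genes summed higher without the antibody, on few counts. Genes of low count did so in general, since all nuclear genes summed to 1.69 at 20 to 49 control counts and 1.25 at 50 to 99. Endothelial genes summed to 2.35 (1.58 to 3.37), from 609 counts in control and 31 in the KS100 pool, with 3 of 9 higher. Pecam1, a junction protein of endothelium, had 29 and 7 counts, a ratio of 11.1 (4.12 to 26.0). Cdh5, the cadherin that defines endothelium, had 29 and 0 counts. Egfl7 had 113 and 0, so the endothelial markers did not move together. Fibroblast and matrix genes summed to 2.31 (1.73 to 3.02), on 1119 and 56 counts, with 2 of 9 higher. Of all 7951 genes 4.5% were called higher. No endothelial gene and only 2 fibroblast genes of the lists were deep enough for a lower call. An even background would give 6.5 of the 31 endothelial counts and 15.4 of the 56 fibroblast counts. In the second pair the fibroblast list summed to 0.527 (0.36 to 0.745), and Col1a2, a collagen chain that was higher without the antibody on 40 and 11 counts, had 367 and 2. Skeletal muscle, fat cell, dendritic cell and cytotoxic genes had no call, with 1, 3, 1 and 1 genes at 20 counts or more.

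Long non-coding RNAs included large differences both ways. Malat1 (chr19:5795690-5802672), a nuclear RNA, had 188 counts in control and 39 in the KS100 pool, a ratio of 9.57 (6.6 to 13.6), and 23.4 (14.7 to 36.5) with the antibody. Kcnq1ot1 (chr7:143203458-143296549), an imprinted RNA that silences its neighbourhood in cis, had 93 and 39 counts, a ratio of 19.4 (13.0 to 28.4). With the antibody it had 24 and 119 counts, a ratio of 284 (182 to 461). It runs antisense to Kcnq1, and its reads cannot be assigned to a strand here. Neat1, the scaffold RNA of paraspeckles, had 671 and 1 counts, a ratio of 0.0688 (0.00174 to 0.384). These 3 are all RNAs that stay in the nucleus, and they did not move together. Their directions were not particular to KS100. The AZD5363+MK1775+anti-PD-1 pool, of 338474 counts, had 1841 for Malat1, 92 for Kcnq1ot1 and 57 for Neat1. The AZD5363+MK1775 pool, of 26639 counts, had 11, 6 and 3. Control, of 1591673 counts, had 188, 93 and 671.

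Among protein-coding genes called higher, Slc30a4 (chr2:122681233-122702663), a zinc exporter, had 67 counts in control and 61 in the KS100 pool, a ratio of 42.0. In the second pair it had 63 and 13 counts, a ratio of 11.8 (5.97 to 21.7). The other 11 zinc and metal transport genes had no call, and the list summed to 1.02 (0.863 to 1.19). R3hdm1 had 79 and 45 counts, a ratio of 26.3 (17.8 to 38.4), and 16.7 (8.51 to 30.8) with the antibody. Raph1, a regulator of actin at the cell edge, had 45 and 32 counts, a ratio of 32.8 (20.2 to 52.8). Mast4, a kinase, had 20 and 18 counts, a ratio of 41.5 (20.7 to 82.7). Gsdme, a gasdermin that opens membrane pores in dying cells, had 20 and 11 counts, a ratio of 25.4 (11.0 to 55.6), and 8 and 5 in the second pair.

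The genes called higher were long and rich in runs of A. The median summed exon length was 8461.5 bases in the 358 higher genes, 3096 in the 148 lower genes and 4729 in all 7951. A run of at least 12 A in the exons' sense strand was present in 52.2% of the higher genes, 10.8% of the lower genes and 18.4% of all. A run of at least 12 T, the same motif on the other strand, was present in 37.9%, 23.6% and 24.2%. Among the higher genes with the largest interval bounds, Mast4 had a longest run of 20 A, Raph1 of 23, R3hdm1 of 18, Ankrd44 of 31 and Gsdme of 18. Slc30a4 had 9 and Rbm6 had 8. Only sense runs within annotated exons were measured, and introns and intergenic sequence were not analysed here.

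Sequences around the longest run of A are shown for the 5 genes with 0 or 1 count in control that entered only through the KS100 pool. This way of entry fixed their high ratios in advance, so they are examples and no evidence about runs of A. No other genes are shown for comparison, and the median longest run among the 7951 genes, where annotated, was 7 A. They were read from GENCODE M21 transcripts (GRCm38), 5′ to 3′ on the transcript's strand, with the run in capitals. Has2os is an antisense RNA with 0 and 27 counts, Nxph1 encodes a secreted synaptic ligand with 0 and 25, and Gm12294 is a processed pseudogene with 0 and 21. Csmd3 encodes a large membrane protein of neurons with 1 and 20, and Creb5 a transcription factor with 0 and 20. The runs lie at chr15:56758365-56758394 (+, non-coding exon 2), chr6:9248818-9248847 (+, exon 3, 3′ UTR), chr11:65037243-65037272 (-, its only exon), chr15:47581698-47581727 (-, exon 71, 3′ UTR) and chr6:53434135-53434164 (+, last exon of a non-coding isoform).
Has2os: tgtatcagAAAAAAAAAAAAAgagtggaaa
Nxph1: gttaaaaaggAAAAAAAAAgatctaaggaa
Gm12294: atattgttAAAAAAAAAAAAAgacttgaaa
Csmd3: gctatAAAAAAAAAAAAAAAAAAAcctctt
Creb5: ctggttAAAAAAAAAAAAAAAAAgaaaaag
The runs are 13, 9, 13, 19 and 17 bases long in that order. An oligo-dT primer can also anneal to a run of A inside a transcript or in genomic DNA. Where the reads of these genes lie was not analysed here, and the part of such priming in the counts was not tested.

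Exon length and runs of A go together, so the genes were also split into 5 classes of like size by exon length. The share of genes called higher was 0.837% in the shortest class and 11.9% in the longest, and the share called lower was 3.61% and 0.838%. Median control counts were 95 in the shortest class and 77 in the longest. Within each class a larger share of the higher genes than of all genes had a run of 12 A, with 45.8% against 11.1% at 2702 to 4070 bases and 65.8% against 38.4% in the longest. For runs of 12 T the shares were closer, with 12.5% against 14.2% at 2702 to 4070 bases and 55.4% against 49.4% in the longest.

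**Figure D3:**
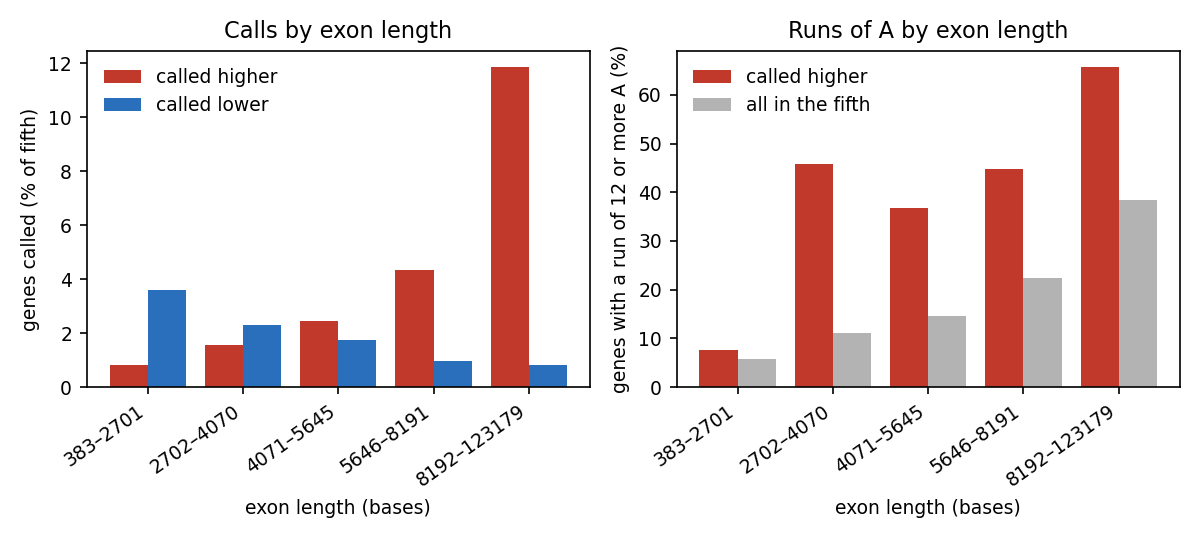
Left, the share of genes called higher (red) and lower (blue) in each of 5 classes of summed exon length (x axis, bases). Right, the share with a run of 12 or more A among the higher genes (red) and among all genes of the class (grey). Higher calls reach 11.9% in the longest class, and the red bar exceeds the grey bar in all 5, on 13 to 184 higher genes a class and on 1 gene with a run in the shortest class.

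The KS100 pool also held reads of genes that control tumours did not show. A set of 8742 protein-coding genes, with 26.97 Mb of exon, was at 0 in both pools without an inhibitor. These silent genes held 1999 counts in the KS100 pool, 4.47% (4.28 to 4.66, exact binomial interval) of its total, or 74.1 per Mb of exon. Spread at that rate over all exons, such a background would make up 19.1% of the KS100 counts. The counts were not evenly spread. They ran from 24.3 per Mb on chromosome 7 and 39.8 on chromosome 14 to 151 on chromosome 1 and 201 (168 to 237) on chromosome 12, and no chromosome's top gene held more than 25 counts. The KS100+anti-PD-1 pool, with 86.6 per Mb in all, was likewise low on chromosome 7 (41.4) and high on chromosomes 1 (168) and 12 (163). A low chromosome 7 and a high chromosome 1 were not particular to KS100. The AZD5363+MK1775+anti-PD-1 pool, with 45.2 per Mb in all, had 27.4 on chromosome 7, 66.5 on chromosome 1 and 47.5 on chromosome 12. The AZD5363+MK1775 pool, with 7.08 in all, had 1.87, 10.1 and 11.9 there, on 6, 18 and 8 counts. The 182 such genes on chromosome Y, with 0.242 Mb of exon, had 0 counts in both KS100 pools.

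**Figure D4:**
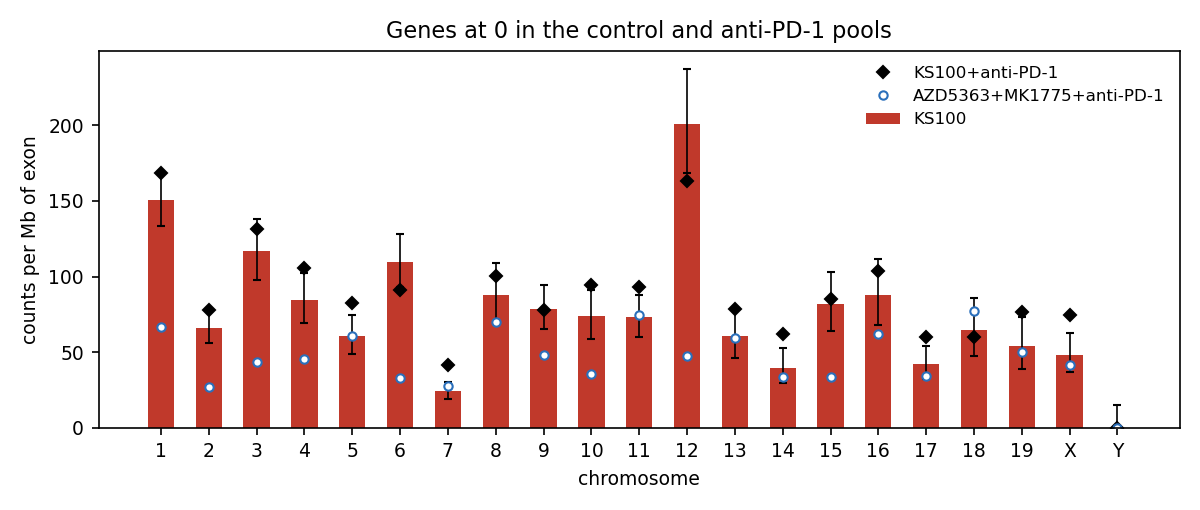
Counts per Mb of exon, by chromosome, in the silent protein-coding genes, at 0 in both pools without an inhibitor, for the KS100 pool (bars, with 95% exact intervals for counting error), the KS100+anti-PD-1 pool (diamonds) and the AZD5363+MK1775+anti-PD-1 pool (open circles). The KS100 pool ran from 24.3 on chromosome 7 to 201 on chromosome 12, with 0 on chromosome Y.

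Higher calls were uneven across chromosomes as well. They were 9.34% of the genes on chromosome 1, 8.21% on chromosome 3 and 7.16% on chromosome 6, against 1.79% on chromosome 10 and 3.48% on chromosome 7. On chromosome 12, where the silent genes had the most counts per Mb, higher calls were 3.4%. All 10 mitochondrial genes among the 7951 were called higher. Neuron and synapse genes, listed as markers of cells foreign to the tumour, had 47 counts in control and 159 in the KS100 pool over 30 genes, and an even background would give 28.7. Only Csmd3, Nxph1 and Ptprd of that list reached 20 counts in a pool.

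Genes more abundant in control had lower ratios. For nuclear genes the summed ratio was 1.69 (1.63 to 1.75) at 20 to 49 control counts, 1.25 at 50 to 99 and 0.911 at 100 to 199. It was 0.812 at 200 to 499, and between 0.643 and 0.713 in every class from 500 up. Of the 358 higher genes, 165 had 20 to 49 control counts, and 212 rested on fewer than 10 counts in the KS100 pool. Subtracting the even background left 86 genes called lower in place of 148 and 390 called higher in place of 358.

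**Figure D5:**
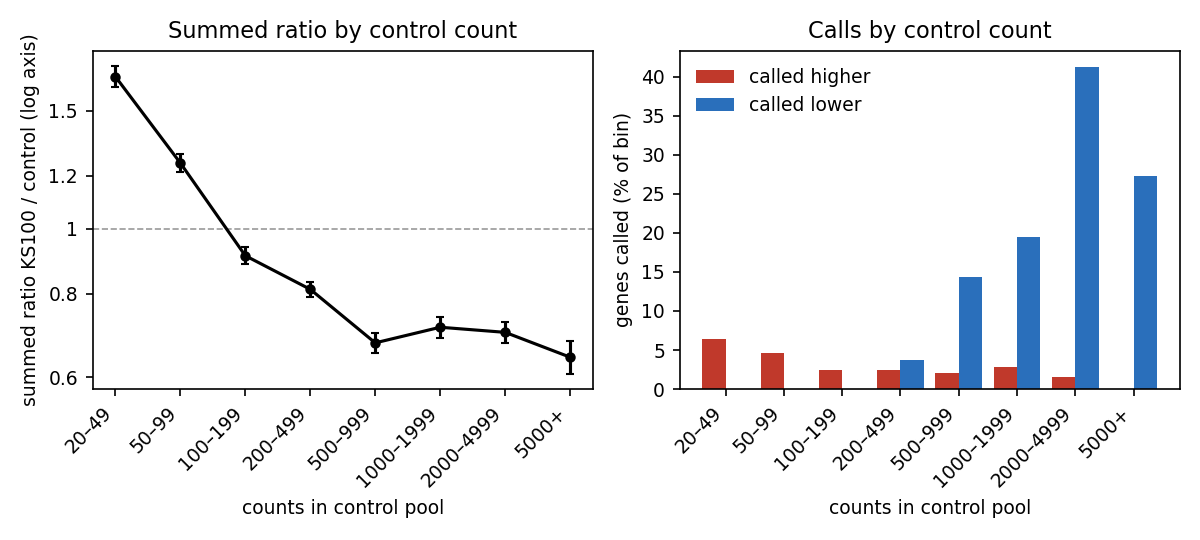
Left, summed ratio of KS100 to control for nuclear genes in classes of control counts (y axis, log scale; bars are 95% exact intervals for counting error). Right, the share of these genes in each class called higher (red) or lower (blue). The ratio drops from 1.69 to 0.643, and lower calls appear only from 200 counts up.

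The second pair measured the same inhibitor in separate libraries, both with anti-PD-1. Of the 358 genes called higher, 276 had enough counts there and 91 (33.0%) were called higher again, against 3.25% of all 6778 genes that could be compared. Of the 148 genes called lower, all had enough counts and 54 (36.5%) were called lower again, against 15.9% of the 1320 compared genes with 258 or more control counts. No gene called lower was called higher in the second pair, and 2 genes, Rps15a and Rpl37, went from higher to lower. Both KS100 libraries were shallow and held more background than the others, so calls shared by them also share those properties, whose part was not tested.

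The genes called lower in both pairs with bounds farthest from 1 included the pigment genes Pmel and Dct, the polyubiquitin gene Ubb, the mitochondrial protein genes Cox6c and Chchd10, and Mif, Gtf2i, Hnrnpab and Cyb5a. Mif (chr10:75859353-75860240), a cytokine and tautomerase, had 5827 counts in control and 26 in the KS100 pool, and 4308 and 7 in the second pair, a ratio there of 0.0931 (0.0374 to 0.192). Gtf2i, a transcription factor, had 1226 and 2 counts, and 633 and 0 in the second pair. Hnrnpab, an RNA-binding protein, had 4104 and 21 counts, a ratio of 0.236 (0.146 to 0.361), and 0.139 (0.0511 to 0.304) with the antibody. Among genes higher in both pairs, Ppip5k1, an inositol pyrophosphate kinase, had 36 and 13 counts, a ratio of 16.7 (8.11 to 32.2), and 22.9 (8.73 to 54.3) with the antibody. Cdc42bpa, a kinase that acts with Cdc42, had 32 and 11 counts, a ratio of 15.9 (7.21 to 32.3), and 21.2 (9.17 to 45.3) with the antibody.

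A fit to all 6 pools, with inhibitor arm and antibody as additive terms, gave the only p-values, with edgeR's quasi-likelihood test and Benjamini-Hochberg adjustment. Pools of other treatments stand in for replicates, and a joint effect of inhibitor and antibody would count as error. The fit called 378 of 4912 genes (7.7%) at an adjusted p under 0.05, 354 higher (7.21%) and 24 lower (0.489%). Among the 4625 fitted genes that belong to the 7951, 124 were higher (2.68%) and 24 lower (0.519%). The other 230 higher calls fell among only 287 fitted genes below 20 counts in both pools of the pair. Without the KS100 pool it called 14 of 8429 genes (0.166%), and without the KS100+anti-PD-1 pool 69 of 8046 (0.858%). The number of genes tested also changed where other pools were left out. Leaving out control gave 169 calls of 1701 genes (9.94%), leaving out anti-PD-1 gave 110 of 1691 (6.51%), and leaving out AZD5363+MK1775+anti-PD-1 gave 225 of 1667 (13.5%).

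The 24 genes lower in this fit included 3 of the 19 pigment genes fitted. One of the 19, Sox5, was higher, with 12 counts in control and 10 in its KS100 counterpart, and with 22 and 3 in the second pair. By edgeR's quasi-likelihood test the adjusted p was 0.028 for Pmel, 0.0452 for Slc24a5 and 0.00472 for Tspan10. It was 0.025 for Ubb, 0.0357 for Psap, 0.021 for Calr, 0.0304 for Apoe and 0.00542 for Gtf2i. Mcm5 (0.00976) and the mitotic motor gene Kif15 (0.0144) were also lower, both at 0 counts in the KS100 pools. Suclg1, a subunit of a citric acid cycle enzyme, and Samm50, of the mitochondrial outer membrane, had adjusted p-values of 0.0261 and 0.0453. Dct, the most abundant gene in control, was not called at an adjusted p of 0.362, nor was Mif at 0.0503. Of the genes called higher in the pair, 113 of the 318 that were fitted were higher in the fit, and of the 148 called lower, 22 were lower. The fit contains both libraries of the pair, so this overlap is not independent of the pair's calls. For Slc30a4 the adjusted p was 5.45e-05, for Kcnq1ot1 1.77e-06 and for Malat1 0.00613.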

How the data were processed

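RNA from 6 pooled B16F10 tumour samples, 1 library per treatment, was sequenced as single reads of 3′ ends (QuantSeq 3′ FWD, MiSeq, 151 cycles), per the labels' protocols. The authors deposited whole-number read counts per Ensembl gene. Per the submitters' processing notes the tools were bcl2fastq, HISAT2 2.1.0 and HTSeq, on GRCm38. For the counting, the annotation release, the strand setting and the rule for multiply mapped reads were not given in the sources used here. All 92 spike-in names were at 0. GENCODE M21 held 42462 of the genes and gave names, exons and transcripts. Sizes came from TMM in edgeR 4.0.16 (R 4.3.3) over all pools. Ratios carry 95% exact conditional (Clopper-Pearson) intervals from SciPy 1.17.1. An upper bound given for a gene at 0 in the KS100 pool is that of this interval. Reads carry no molecular identifiers, so intervals and floors cover counting error only. Medians of log2 ratios used a prior count of 2. The arm fit was edgeR's quasi-likelihood test after filterByExpr, with DESeq2 1.42.0 as an alternative. Its p-values measure spread between pools of different treatments. Scripts were tested on simulated data. The genes compared and the 54 gene lists were chosen with earlier results of these data known. List sums cover all listed genes in the table, and list counts cover those among the 7951. Genes were named by rank of their interval bound, as the called or most abundant list members, as aldehyde dehydrogenases, or as called alike in both pairs with bounds farthest from 1. Genes named beyond these, among them Mlana, Trpm1, Mitf, Sox10, Pax3, Sdhb, Cox7a2, Cdh5, Egfl7, Rara, Cyp26b1, Kif15, Suclg1, Samm50 and Sox5, were chosen after their values were seen. Single values of some genes are not reported here.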

Additional observations from a re-analysis of the deposited data

Results flagged for a closer look

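Rps15a and Rpl37, both ribosomal protein genes, stood out because KS100 against control and KS100+anti-PD-1 against anti-PD-1 gave opposite calls. Rps15a had 1585 counts in control and 93 in the KS100 pool, 2.71-fold higher, and 1711 and 6 counts in the second pair, a ratio of 0.201 (0.0737 to 0.438). Rpl37 had 3208 and 169 counts, 2.43-fold higher, and 1936 and 1 in the second pair, a ratio of 0.0296 (0.000749 to 0.165). The difference between the pairs was not tested, and both genes have processed pseudogenes that may take part of their reads.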

How the results depend on the processing

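With library totals the pair without antibody had 321 lower calls and the pair with it 439, and the share of higher calls there fell from 52.1% to 27.1%. With a minimum of 50 counts the first pair had 334 calls, 186 higher, and the second 285, 72 higher. With a minimum of 10 the second pair had 415 higher. With no minimum they had 2134 calls (1986 higher) and 2567 (2354 higher). With the even background subtracted, 86 and 63 were lower. The arm fit called 1270 genes (1248 higher) when any count sufficed, and 84 lower over the 4 pools of the control and KS100 arms alone. Leaving out each pool in turn gave 14 to 290 calls, 14 to 269 higher and 0 to 22 lower. The 0 lower calls arose without the KS100 pool or without the KS100+anti-PD-1 pool, where 1033 and 475 genes had an unadjusted p under 0.05 in edgeR, and no other tool was run on those pools. Each lone pool was assumed to vary like the others. DESeq2's Wald test called 355 genes over all pools. The summed ratio of dedifferentiation genes turned to 0.999 and of ribosomal proteins to 0.877 with library totals, and of histone genes from 0.862 to 1.03 with background subtracted. The cause of these changes was not tested. Of 396 ratios of named genes under 3 other scalings, 376 kept their direction and side of the rule, 18 left it and 2 entered it. List sums moved by less than their interval in 168 of 216 cases. No paired analysis was possible because each treatment had 1 library. Depth limits lower calls to genes with 258 or more control counts.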
